A study of Mus musculus with 4 samples.

Results

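The genes that encode the proteasome, the barrel-shaped protease complex that breaks down ubiquitin-tagged proteins, were compared between mesenchymal stem cells (MSCs) of leukemic mice (L-MSCs) and control MSCs. Members were the genes whose symbols follow the Psma, Psmb, Psmc, Psmd and Psme1 to Psme4 series, without the immunoproteasome genes *Psmb8*, *Psmb9* and *Psmb10*. Of 17457 genes listed, 41 had such a symbol, and the 39 with an FPKM (fragments per kilobase per library size, a level corrected for gene length) of 1 or more in 2 or more of the 4 libraries were described. The other two, *Psma8* of the testis proteasome and *Psmb11* of the thymus proteasome, stayed below an FPKM of 1 in all 4 samples. The symbol rule also took in *Psmc3ip*, which encodes a partner of the meiotic recombinases and is no proteasome subunit, so that 38 of the 39 fit the name. Among these, *Psme1* and *Psme2* are known to respond to interferon, so that the name constitutive applies to them less than to the rest.

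RNA-sequencing covered 2 libraries of L-MSCs and 2 libraries of control MSCs. L-MSCs came from young adult female C57BL/6J mice that had received 1000 BCR-ABL1+ pre-B ALL cells through the tail vein and were killed with a high leukemia burden. Control MSCs came from female C57BL/6J mice of the same experiment that had received PBS. In both groups the marrow was flushed out, the long bones were digested, and Sca-1+ PDGFRα+ cells that lacked CD45, TER119 and CD31 were sorted from pools of 4 to 7 mice. The leukemia is a single injected cell line, and the libraries are pools, so that the spread between mice is not seen and p-values measure only the spread between these pools. The paper gives clean reads per sample as a range. The read count behind each value is unknown, since only FPKM were used. Among genes of the sort antigens, *Ly6a* was abundant, with 1702 and 1985 FPKM in L-MSCs, against 1056 and 1711 FPKM in control MSCs. *Ptprc*, which encodes CD45, was at 0 in 3 libraries and at 0.02 FPKM in control replicate 2. In a list of 6 MSC markers that includes *Ly6a*, the genes *Col1a1* and *Thy1* were called lower in L-MSCs (log2 fold changes of -1.58 and -1.38). No other gene of that list was called, and the median log2 fold change over the 6 was 0.15. Among lists of other cell types, the erythroid, proliferating and hematopoietic sums lay apart between the groups, and the endothelial sums overlapped. The 4 erythroid genes that passed the filter were all called lower in L-MSCs, with 10.1 and 6.26 FPKM summed over the list in L-MSCs, against 239 and 149.8 FPKM in control MSCs. The 6 genes of proliferating cells summed to 7.24 and 9.03 FPKM in L-MSCs, against 14.9 and 16.2 FPKM in control MSCs, and 1 of 4 measured was called lower. The 12 hematopoietic genes summed to 84.2 and 70.6 FPKM in L-MSCs, against 45.7 and 48.8 FPKM in control MSCs, mostly *Ebf1*, the 1 of 4 measured that was called higher. The 5 endothelial genes summed to 2.79 and 5.02 FPKM in L-MSCs, against 3.14 and 4.37 FPKM in control MSCs. The part of these cells in the results below was not tested.

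The proteasome consists of a 20S core and a 19S cap. The core stacks rings of alpha subunits, which form the gate, on rings of beta subunits, some of which cut the substrate. The cap holds a ring of ATPases, which unfolds the substrate and threads it into the core, and non-ATPase subunits, which receive ubiquitin chains and remove them. In cells that meet interferon-gamma, Psmb8, Psmb9 and Psmb10 take the places of the catalytic subunits Psmb5, Psmb6 and Psmb7, and the PA28 activator of Psme1 and Psme2 can replace the cap.

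Promoters of 5 members are shown because the values below turn on these genes. *Psmb5* and *Psmb6* encode catalytic subunits, *Psmd5* was the only member that passed the test, *Psmd13* was next to it by p, and *Psme1* was the only member higher in both L-MSC libraries. Each run goes from 100 bases before the transcription start to 30 bases into the transcript (RefSeq, GRCm38.p6, 5′ to 3′ on the strand of the gene), and capitals mark matches to the motifs named after them.
Psmb5 (chr14:54617966-54618095, minus strand, antioxidant response element core): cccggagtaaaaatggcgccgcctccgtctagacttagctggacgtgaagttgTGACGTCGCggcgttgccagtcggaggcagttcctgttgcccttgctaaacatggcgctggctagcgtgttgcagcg
Psmb6 (chr11:70525257-70525386, plus strand, antioxidant response element core): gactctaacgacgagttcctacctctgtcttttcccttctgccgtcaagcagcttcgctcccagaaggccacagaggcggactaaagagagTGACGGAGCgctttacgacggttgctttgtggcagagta
Psmd5 (chr2:34870933-34871062, minus strand, no match): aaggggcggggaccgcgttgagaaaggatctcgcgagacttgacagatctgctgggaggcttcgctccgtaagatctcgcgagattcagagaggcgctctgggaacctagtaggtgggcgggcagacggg
Psmd13 (chr7:140882294-140882423, plus strand, no match): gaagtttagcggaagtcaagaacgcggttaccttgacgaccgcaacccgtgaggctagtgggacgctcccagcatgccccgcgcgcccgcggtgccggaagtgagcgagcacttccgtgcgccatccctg
Psme1 (chr14:55578394-55578523, plus strand, interferon-stimulated response element core): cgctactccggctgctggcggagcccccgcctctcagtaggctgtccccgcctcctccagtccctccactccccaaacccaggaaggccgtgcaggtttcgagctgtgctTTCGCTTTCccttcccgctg

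Of the 39 members, 33 had an entry in the RefSeq promoter table of GRCm38.p6, and *Psmb1*, *Psmb2*, *Psmb7*, *Psmc3*, *Psmd3* and *Psmd7* had none. Promoters of 250 bases before to 50 bases after each start were searched on both strands. The core of the antioxidant response element, TGACNNNGC, which is read by the proteasome gene activators Nfe2l1 and Nfe2l2, was found in 6 of 33 members (18.2%), against 13.99% of 27025 genes. *Psmb5* had it 47 bases before the start and *Psmb6* had it 9 bases before the start, and both are shown above. The CCAAT box was found in 13 of 33 members (39.4%), against 41.1% of all genes. The core of the interferon-stimulated response element, GAAANNGAA, was in 6 members (18.2%), against 9.76% of all genes. The capitals in *Psme1* mark it on the opposite strand. The other members with it were *Psmb3*, *Psmb4*, *Psmc2*, *Psmd4* and *Psmd9*, all with log2 fold changes below 0 (from -0.52 to -0.06). All motif hits are matches of letters and not measured binding sites, and their relation to the values was not tested. *Psmd5* and *Psmd13* had none of these motifs. Another motif that was searched is not reported here.

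Most proteasome genes had lower values in L-MSCs. As deposited, the 39 members made up 0.587% and 0.570% of the summed FPKM in L-MSCs, against 0.703% and 0.688% in control MSCs. After scaling by the median of ratios, the members had a median log2 fold change of -0.31 in L-MSCs over control MSCs, where all 11056 genes tested had a median of -0.01. Of the 39, 35 had a log2 fold change below 0, against 50.7% of all genes tested, and 27 of 39 did so after quantile normalization. The values of the groups did not overlap for 27 members, 26 with both L-MSC libraries below both control libraries, against 27.2% of all genes, and 1 higher, against 24.8%. Under quantile normalization 16 members were lower and 3 were higher without overlap, against 26.8% and 24.4% of all genes, and on FPKM as deposited 20 were lower and 2 higher, against 21.7% and 30.8%. In bulk samples, fewer cells of a type and less RNA per cell cannot be told apart, and FPKM are relative to the rest of the library.

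**Figure D1:**
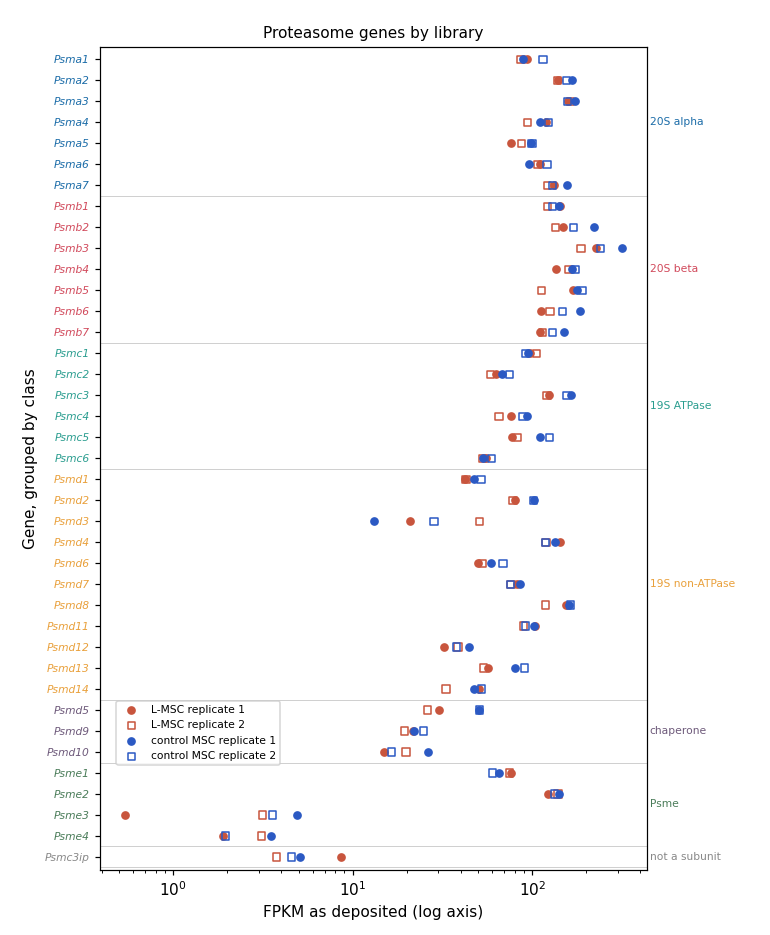
FPKM as deposited (log axis) of the 39 members in 2 L-MSC libraries (red) and 2 control MSC libraries (blue), with circles for replicate 1 and squares for replicate 2, grouped by class. *Psme3*, *Psme4* and *Psmc3ip* lie below all other members, with *Psme3* at 0.54 FPKM in L-MSC replicate 1. Mean FPKM of the other members ran from 19.4 (*Psmd10*) to 243 (*Psmb3*).

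Gene by gene, the test called 1 of the members. Limma called 0 of 39 members, against 5.07% of all genes tested, when an adjusted p up to 0.05 was asked for together with a 1 log2 unit change or more. Without the fold threshold it called 1 member lower, *Psmd5*, against 3.23% of all genes called lower and 5.81% called in either direction. At an unadjusted p of at most 0.05, limma had 10 members lower, against 11.6% of all genes, and 0 higher, against 9.54% (21.2% in either direction). Log2 fold changes of -0.3 or lower were found for 22 members, against 27.9% of all genes, and for 20 members the difference was lower in L-MSCs and exceeded both differences between replicates, against 20.6% of all genes. For a single gene, the smallest p of an exact permutation test with 2 libraries per group would be p = 0.33, so that the tests rest on the spread that limma pools across genes.

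**Figure D2:**
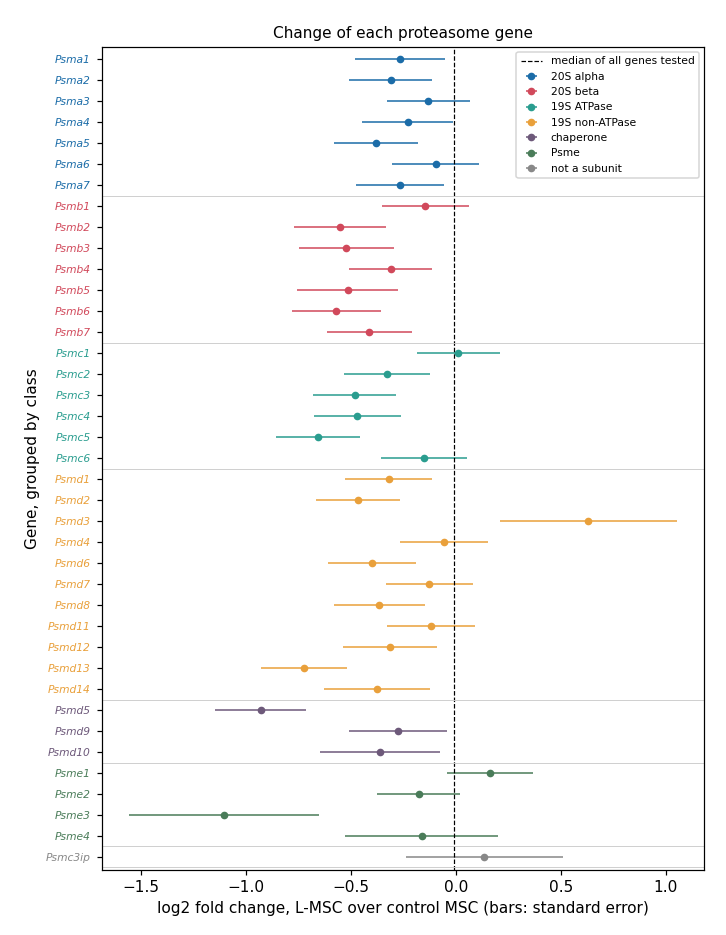
Log2 fold change of each member in L-MSCs over control MSCs on the scale of log2(FPKM + 1), with bars of 1 standard error from limma (n = 2 each) and a dashed line at the median of all genes tested, -0.01. Points of the 20S alpha, 20S beta, 19S ATPase and 19S non-ATPase classes lie mostly left of the line. *Psmd5* at -0.93 and *Psme3* at -1.10 are farthest left, and *Psmd3* at 0.63 is farthest right.

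*Psmd5* encodes a chaperone that holds the ATPase *Psmc2* during assembly of the cap and is not part of the finished complex. It lies on chromosome 2 of GRCm38.p6 from 34852087 to 34870965. Its level was 30.2 and 26.2 FPKM in L-MSCs, against 50.6 and 51.0 FPKM in control MSCs. Both L-MSC libraries were far below both control libraries, which were nearly equal to each other. *Psmd5* fell in L-MSCs by a log2 fold change of -0.93 (SE, the standard error, of 0.22, limma adjusted p = 0.0372). The call did not hold when any of the 4 libraries was left out (adjusted p from 0.0572 to 0.0996), without scaling (0.0569), with TPM (0.0551), after quantile normalization (0.0671), without a variance trend (0.105) or without the filter on low FPKM (0.247), while its log2 fold change stayed between -1.05 and -0.80. The other two chaperones with Psmd names were less abundant. *Psmd9* had 21.6 and 19.4 FPKM in L-MSCs, against 21.9 and 24.8 FPKM in control MSCs, a log2 fold change of -0.28 that missed the threshold (limma adjusted p = 0.552). *Psmd10*, or gankyrin, had 14.9 and 19.8 FPKM in L-MSCs, against 26.4 and 16.4 FPKM in control MSCs. Its groups overlapped, and the control replicates differed more than the group means.

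The log2 fold changes of the 7 beta genes of the core ranged from -0.57 to -0.15 with a median of -0.52. Of the 7, 6 were lower without overlap, against 27.2% of all genes. The summed FPKM of the class was 1045 and 952 in L-MSCs, against 1354 and 1179 in control MSCs. Each catalytic subunit was lower in both L-MSC libraries. *Psmb6*, which cuts after acidic residues, had 112 and 125 FPKM in L-MSCs, against 184 and 147 FPKM in control MSCs, a log2 fold change of -0.57 (SE 0.21). *Psmb5*, which cuts after hydrophobic residues, had 168 and 112 FPKM in L-MSCs, against 178 and 189 FPKM in control MSCs, a log2 fold change of -0.52 (SE 0.24). L-MSC replicate 1 was close to the controls for *Psmb5* and replicate 2 was well below them. *Psmb7*, which cuts after basic residues, had 111 and 114 FPKM in L-MSCs, against 150.3 and 130.0 FPKM in control MSCs, a log2 fold change of -0.41 (SE 0.20). None of the 3 passed the test (limma adjusted p = 0.160, 0.257 and 0.279, in the order given).

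The structural beta subunits showed the same order of groups, apart from *Psmb1*. *Psmb3*, the most abundant of all members, had 227 and 187 FPKM in L-MSCs, against 315 and 241 FPKM in control MSCs. *Psmb2* had 148 and 134 FPKM in L-MSCs, against 219.5 and 169 FPKM in control MSCs. For both genes, control replicate 1 was well above control replicate 2, and both L-MSC libraries were below both. *Psmb4* had 136 and 158 FPKM in L-MSCs, against 166 and 174 FPKM in control MSCs. Log2 fold changes were -0.52, -0.55 and -0.31 for *Psmb3*, *Psmb2* and *Psmb4* (limma adjusted p = 0.227, 0.182 and 0.414, none of which passed). *Psmb1* had 142 and 121 FPKM in L-MSCs, against 141 and 129 FPKM in control MSCs, and its groups overlapped. Leaving out control replicate 1, the median of the beta class was -0.34, above those of the ATPase (-0.41) and non-ATPase (-0.37) classes.

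**Figure D3:**
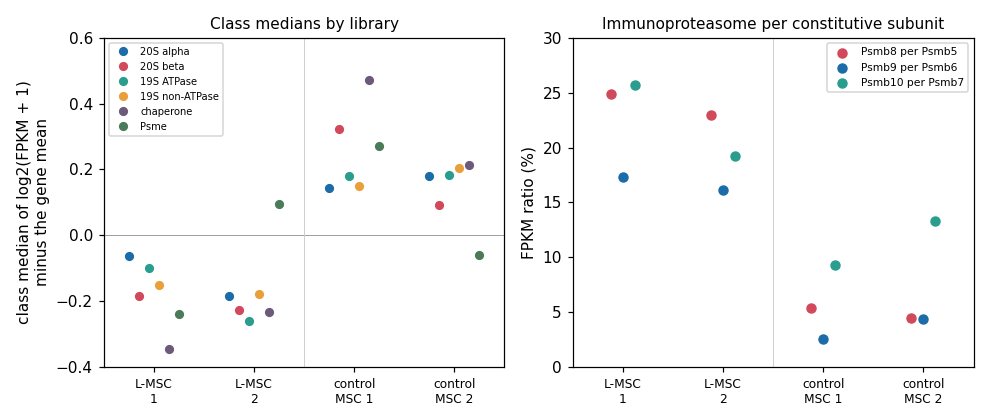
Left, median over each class of log2(FPKM + 1) after scaling, minus the mean of the gene over the 4 libraries, with L-MSC libraries left of control MSC libraries. Right, deposited FPKM of each immunoproteasome subunit as a percentage of the subunit it replaces. All 4 subunit classes lie below 0 in both L-MSC libraries and above 0 in both control libraries, and all 3 percentages are higher in both L-MSC libraries, with *Psmb8* at 24.9% and 22.9% of *Psmb5* in L-MSCs and at 5.39% and 4.46% in control MSCs.

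The immunoproteasome subunits that replace the catalytic subunits were higher in both L-MSC libraries, and 2 of the 3 were called. *Psmb8* had 41.9 and 25.8 FPKM in L-MSCs, against 9.60 and 8.45 FPKM in control MSCs, and was called higher, as was *Psmb9* (log2 fold changes of 1.66 and 1.57, limma adjusted p = 0.0114 and 0.0105). Relative to the subunit each replaces, *Psmb8* stood at 24.9% and 22.9% of *Psmb5* in L-MSCs, against 5.39% and 4.46% in control MSCs. *Psmb9* stood at 17.3% and 16.1% of *Psmb6* in L-MSCs, against 2.59% and 4.40% in control MSCs. *Psmb10* stood at 25.7% and 19.2% of *Psmb7* in L-MSCs, against 9.33% and 13.3% in control MSCs, while its own log2 fold change of 0.55 did not pass (limma adjusted p = 0.252). These percentages are taken within a library, so that no scaling between libraries enters them. The 3 immunoproteasome genes together held 18.6% and 16.2% of the FPKM of the 6 catalytic genes in L-MSCs, against 5.25% and 6.47% in control MSCs. The constitutive subunits were the larger part in every library.

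The 7 log2 fold changes of the alpha genes of the core ranged from -0.38 to -0.10 with a median of -0.27. Of the 7, 5 were lower without overlap, against 27.2% of all genes. On FPKM as deposited the class summed to 829.6 and 797 in L-MSCs, against 887 and 899 in control MSCs. *Psma5* had 76.1 and 87.0 FPKM in L-MSCs, against 98.2 and 99.6 FPKM in control MSCs, a log2 fold change of -0.38 (SE 0.20, limma adjusted p = 0.316). *Psma2* had 139.7 and 138 FPKM in L-MSCs, against 166 and 155 FPKM in control MSCs, with replicates closer to each other than the groups were. *Psma3*, the most abundant of the class, had 159 and 164 FPKM in L-MSCs, against 172 and 157 FPKM in control MSCs, groups that overlapped before scaling. *Psma1* and *Psma7* had log2 fold changes of -0.27 and -0.27, and their groups were apart only after scaling. The groups of *Psma4* (-0.23) and *Psma6* (-0.10) overlapped. Without L-MSC replicate 2 the median of the alpha class was -0.18, and under quantile normalization it was -0.08, with *Psma3* and *Psma6* above 0.

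The ATPases of the 19S cap ranged from a log2 fold change of -0.65 to 0.01, with a median of -0.40 over 6 genes. Of the 6, 5 were lower without overlap, against 27.2% of all genes. *Psmc5* was the lowest, with 77.2 and 82.9 FPKM in L-MSCs, against 111 and 125 FPKM in control MSCs. The gap between the groups was wider than that between replicates, at a log2 fold change of -0.65 (SE 0.20, limma adjusted p = 0.0939, which did not pass). *Psmc3*, the most abundant ATPase gene, had 124 and 121 FPKM in L-MSCs, against 165 and 155 FPKM in control MSCs, a log2 fold change of -0.48 (SE 0.20). *Psmc4* had 75.7 and 65.2 FPKM in L-MSCs, against 93.6 and 88.3 FPKM in control MSCs. *Psmc2*, the partner of the *Psmd5* product, had 63.1 and 58.4 FPKM in L-MSCs, against 67.8 and 74.6 FPKM in control MSCs. In all 4 of these genes the L-MSC libraries were lower on deposited FPKM as well. *Psmc6* had the lowest level of the class, with 55.2 and 53.0 FPKM in L-MSCs, against 53.3 and 59.01 FPKM in control MSCs. *Psmc1* was the exception, with 96.7 and 105 FPKM in L-MSCs, against 94.2 and 92.1 FPKM in control MSCs. It was higher in both L-MSC libraries as deposited and overlapped after scaling, at a log2 fold change of 0.01.

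The 11 non-ATPase subunits of the cap ranged from a log2 fold change of -0.72 to 0.63, with a median of -0.32, where the upper end was *Psmd3* and the next highest was *Psmd4* at -0.06. Of these genes, 6 were lower without overlap, against 27.2% of all genes, 0 were higher, against 24.8%, and 5 overlapped. Without L-MSC replicate 2 the median was -0.15. *Psmd13*, of the lid, was the lowest, with 56.5 and 53.6 FPKM in L-MSCs, against 80.6 and 90.2 FPKM in control MSCs. Its log2 fold change of -0.72 (SE 0.20) had the second smallest p of the members and did not pass (limma adjusted p = 0.0730), and it passed when genes under an FPKM of 5 were left out of the fit (adjusted p = 0.0496). *Psmd13* lies on chromosome 7 of GRCm38.p6 from 140882394 to 140898642 and overlaps the pseudogene *Gm15542*. *Psmd2*, a scaffold of the base that binds ubiquitin shuttles, had 79.7 and 78.0 FPKM in L-MSCs, against 102 and 102 FPKM in control MSCs. The replicates of *Psmd2* were nearly equal within each group, at a log2 fold change of -0.47 (limma adjusted p = 0.214). *Psmd1*, the other large scaffold of the base, had 42.0 and 42.7 FPKM in L-MSCs, against 47.2 and 51.8 FPKM in control MSCs.

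Other lid genes followed with smaller differences. *Psmd6* had 50.1 and 52.6 FPKM in L-MSCs, against 58.5 and 68.7 FPKM in control MSCs. *Psmd8*, the most abundant of the class, had 154 and 118 FPKM in L-MSCs, against 161 and 163 FPKM in control MSCs, with L-MSC replicate 1 close to the controls. *Psmd12* had 32.4 and 38.6 FPKM in L-MSCs, against 44.5 and 38.0 FPKM in control MSCs, which overlapped as deposited and were apart after scaling. *Psmd14*, the deubiquitinase of the lid, had 50.3 and 33.1 FPKM in L-MSCs, against 47.1 and 52.1 FPKM in control MSCs. Only replicate 2 of the L-MSCs was below the controls for this gene. The groups of *Psmd7*, its structural partner, of *Psmd11* and of the ubiquitin receptor *Psmd4* overlapped, with log2 fold changes of -0.13, -0.12 and -0.06.

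*Psmd3*, also of the lid, stood apart from the other cap genes. It had 20.9 and 50.9 FPKM in L-MSCs, against 13.1 and 28.4 FPKM in control MSCs. Replicate 2 was more than double replicate 1 in both groups, with replicate 1 minus replicate 2 at -1.21 on the log2 scale in L-MSCs and at -1.04 in control MSCs. Its log2 fold change of 0.63 between groups (SE 0.42, limma adjusted p = 0.436) was smaller in size than either, and without control replicate 1 it was 0.10. Its mean level was the lowest of the class.

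The activators that can take the place of the cap were mixed, and their 4 log2 fold changes had a median of -0.17. *Psme1* and *Psme2* encode the subunits of PA28. *Psme1* had 75.8 and 74.8 FPKM in L-MSCs, against 65.3 and 59.8 FPKM in control MSCs. It was the only member higher in both L-MSC libraries after scaling, at a log2 fold change of 0.16 that did not pass (SE 0.20, limma adjusted p = 0.706). It shares bases with *Emc9*, which had 22.4 and 26.7 FPKM in L-MSCs, against 28.9 and 23.6 FPKM in control MSCs, and reads of overlapping genes cannot be told apart without strand. *Psme2* had 122 and 139 FPKM in L-MSCs, against 141 and 133 FPKM in control MSCs, a log2 fold change of -0.18. The ratio of *Psme1* to *Psme2* was 0.622 and 0.538 in L-MSCs, against 0.462 and 0.449 in control MSCs. *Psme2b*, a copy of *Psme2* that may share its reads, had 1.50 and 1.11 FPKM in L-MSCs, against 0.550 and 0.180 FPKM in control MSCs.

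*Psme3* and *Psme4*, the nuclear activators PA28-gamma and PA200, were near the filter. *Psme3* had 0.540 and 3.16 FPKM in L-MSCs, against 4.87 and 3.57 FPKM in control MSCs. The gap between the L-MSC replicates of *Psme3*, at -1.38 on the log2 scale, was wider than the gap between the groups, at -1.10 (SE 0.45, limma adjusted p = 0.198). Without L-MSC replicate 2 it was called lower (log2 fold change -1.78, limma adjusted p = 0.00844), so that this call rests on L-MSC replicate 1 alone. *Psme4* had 1.89 and 3.11 FPKM in L-MSCs, against 3.53 and 1.96 FPKM in control MSCs, groups that overlapped. *Psmc3ip*, the meiotic gene, had 8.58 and 3.78 FPKM in L-MSCs, against 5.06 and 4.56 FPKM in control MSCs, and overlapped as well.

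Core genes were more abundant than cap genes in every library. The 14 core genes had mean FPKM from 90.2 to 243 and the 17 cap genes from 28.3 to 149.0. The median of the cap genes per median of the core genes was 0.564 and 0.539 in L-MSCs, against 0.534 and 0.639 in control MSCs, which overlapped. Median log2 fold changes of core and cap were -0.31 and -0.33. Of the 39 members, 12 overlap another annotated gene on GRCm38.p6, 6 of them a protein-coding gene.

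Genes around the proteasome were mixed. Of 15 measured assembly factors and further subunits, 0 were called in either direction by limma, against 5.81% of all genes. Their median log2 fold change was -0.18. Without overlap, 5 were lower and 3 were higher, near the shares of all genes (27.2% and 24.8%). *Pomp*, the chaperone that matures the core, had 108 and 126 FPKM in L-MSCs, against 177 and 159.6 FPKM in control MSCs, a log2 fold change of -0.62 (limma adjusted p = 0.115). *Sem1*, a small lid subunit, had 291 and 377 FPKM in L-MSCs, against 437 and 398 FPKM in control MSCs. The ubiquitin receptor *Adrm1* overlapped, at -0.18. Of 17 ubiquitin and shuttle genes, 0 were called, against 5.81% of all genes, with a median log2 fold change of 0.20. The polyubiquitin gene *Ubb* had 3665 and 3058 FPKM in L-MSCs, against 3492 and 2184 FPKM in control MSCs, and its groups overlapped.

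Among 12 measured transcription factors of proteasome genes, the median log2 fold change was 0.50. Of the 12, 2 were called higher and 0 lower, against 5.81% of all genes called in either direction. Without overlap, 9 were higher and 1 was lower, against 24.8% and 27.2% of all genes. The list also holds factors of immunoproteasome genes, so that its median is not that of activators of constitutive subunits alone. *Irf1*, which acts in the interferon response and on immunoproteasome genes, had 93.8 and 57.5 FPKM in L-MSCs, against 29.1 and 15.2 FPKM in control MSCs, and was called higher (log2 fold change 1.65, limma adjusted p = 0.0227). *Nfe2l1*, which raises constitutive subunits when the proteasome is inhibited and is named here outside the naming rule, had 30.3 and 31.3 FPKM in L-MSCs, against 26.9 and 30.8 FPKM in control MSCs, a log2 fold change of -0.0039. Its relative *Nfe2l2* had 60.6 and 58.1 FPKM in L-MSCs, against 33.4 and 48.9 FPKM in control MSCs (limma adjusted p = 0.324). *Mafk*, a DNA-binding partner of both, and *Stat3* had log2 fold changes of 0.67 and 0.47 without overlap, and neither passed (limma adjusted p = 0.142 and 0.235).

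The proteasome genes were set beside those of the ribosome and of the CCT chaperonin, a folding complex, with no test of the difference. Median log2 fold changes were -0.31 for the 39 proteasome genes, 0.37 for 82 ribosomal protein genes and -0.21 for 8 CCT genes. Ribosomal protein genes made up 6.00% and 5.83% of the summed FPKM in L-MSCs, against 4.05% and 4.88% in control MSCs. Of the 82, 55 were higher without overlap, against 24.8% of all genes. Of the 8 CCT genes, 3 were lower without overlap and 0 higher, against 27.2% and 24.8% of all genes.

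**Figure D4:**
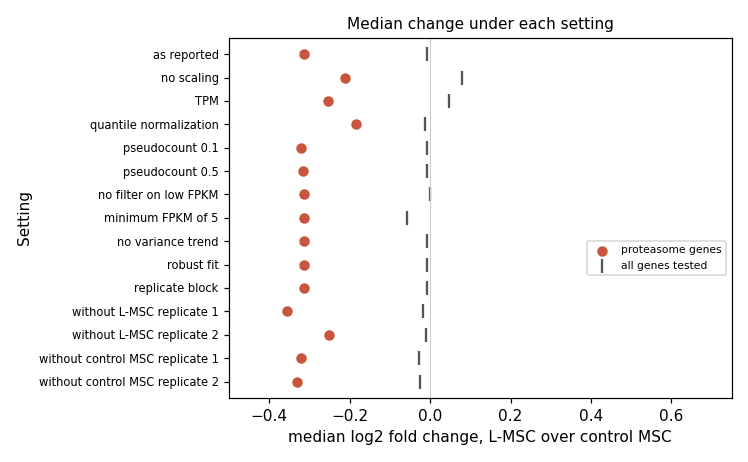
Median log2 fold change of the proteasome genes (red points) and of all genes tested (gray bars) in L-MSCs over control MSCs under each setting of the processing, with 1 setting per row. The proteasome median is below 0 and below that of all genes in each row, from -0.36 without L-MSC replicate 1 to -0.18 after quantile normalization.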

How the data were processed

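Bulk RNA-sequencing libraries of sorted MSCs (2 of L-MSCs and 2 of control MSCs) were made with a full-length cDNA kit that does not keep strand. FPKM values were made by the authors and deposited per gene. The submitters' processing notes name HISAT2 2.0.4, Bowtie2 2.2.5, RSEM 1.2.8 and GRCm38.p6. A deposited column of log2 ratios between the groups, made by the authors, was not used. Libraries were scaled by their median ratios, FPKM were log2-transformed with a pseudocount of 1, and the 11056 genes that reached an FPKM of 1 in 2 or more samples were tested with limma 3.58.1 (R 4.3.3, empirical Bayes with a variance trend, Benjamini-Hochberg adjustment). Fold changes are on the log2(FPKM + 1) scale, which understates the change of low genes. Thresholds were an adjusted p of at most 0.05, with and without a change of 1 log2 unit or more. The fit was tested on simulated data. Alternatives were no scaling, TPM, quantile normalization, other pseudocounts, filters and limma options, the replicate number as a block, and each library left out.

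The members, the gene lists and the naming rule were chosen with earlier results of these data known. The rule gave values per sample for members at an adjusted p of at most 0.05, for members without overlap whose log2 fold change was 0.3 or more in size, and for the highest and lowest member of each class by mean FPKM. Of related lists, called genes and up to 3 of the most abundant were named. Promoters were taken from RefSeq tables of GRCm38.p6. Overlap between groups was judged on scaled values unless stated. Some genes of these lists are not reported here.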

Additional observations from a re-analysis of the deposited data

How the results depend on the processing

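Over 544 member values under the alternatives, 510 kept their direction and side of the threshold, 20 reversed, 9 lost and 5 gained a call. The other filters, the limma options and the block leave each log2 fold change as it was, so that no value could reverse there. Only *Psmd5* was called at first, so that no other member could lose a call. The median log2 fold change of members stayed below 0 throughout, at -0.21 without scaling, -0.26 with TPM and -0.18 after quantile normalization. The median of all genes tested was 0.08, 0.05 and -0.01 in the same order. Members thus lay below all genes by -0.29, -0.30 and -0.17, against -0.30 in the main fit. Without scaling the medians were -0.17 for alpha, -0.30 for ATPase and -0.22 for non-ATPase genes, and the last was -0.26 with TPM. Quantile normalization gave -0.079 for alpha, -0.36 for beta, -0.22 for ATPase and -0.18 for non-ATPase genes, and 16 members lower without overlap. Limma called 0 members at an adjusted p of at most 0.05 without scaling, with TPM, after quantile normalization, without the filter on low FPKM and without the variance trend. Of all genes, 4.81%, 4.04%, 5.06%, 0% and 2.5% were called there in the same order, so that without the filter no gene was called. With a minimum FPKM of 5 it called 2 members (*Psmd5* and *Psmd13*), 5.41% of those tested, against 9.78% of all genes. The cause was not tested.

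The numbers 1 and 2 are not stated to pair the libraries (r = 0.1013 across 11056 genes between the replicate differences of the groups). With the replicate number as a block, limma called 4 members at an adjusted p of at most 0.05 (*Psmc5*, *Psmd13*, *Psmd5* and *Psme3*), and 1 of them with the fold threshold. The 4 are 10.3% of the members, against 13.3% of all genes called with the block.

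With 1 library left out, the lone sample of a group is assumed to vary like the others. The counts were then 0 to 1 at adjusted p alone, 0 to 1 with the fold threshold (*Psme3*, without L-MSC replicate 2) and 29 to 33 lower without overlap, where 3.65% to 9.54% of all genes were called at adjusted p alone and 38.7% to 40.6% were lower without overlap. Medians ranged from -0.36 to -0.25 for members, -0.35 to -0.18 for alpha, -0.55 to -0.34 for beta, -0.47 to -0.30 for ATPase, -0.37 to -0.15 for non-ATPase and -0.37 to 0.01 for Psme genes, with the non-ATPase median at -0.15 without L-MSC replicate 2.

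The reversed values belonged to members that did not pass the test. Without scaling, *Psmd4* was at 0.047 and *Psma6* at 0.0056, and with TPM *Psmd4* was at 0.0064. After quantile normalization, *Psmd4* was at 0.14, *Psma6* at 0.083, *Psmd11* at 0.072, *Psmd7* at 0.042, *Psma3* at 0.043, *Psmb1* at 0.044, *Psmc6* at 0.030 and *Psme2* at 0.025. With 1 library left out, *Psme4* ranged from -0.49 to 0.15, *Psmd4* from -0.21 to 0.091, *Psma6* from -0.25 to 0.037, *Psmd11* from -0.24 to 0.00032, *Psmc1* from -0.034 to 0.044 and *Psmc3ip* from -0.38 to 0.65.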
